A study of Mus musculus with 2 samples.

Results

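The Ly6 gene cluster on chromosome 15 was examined through 3 of its genes, Ly6a, Ly6c1 and Ly6c2, among 49997 genes with a symbol in the RefSeq table used for names. The genes and the 300 kb around them (74.75 to 75.05 Mb in build mm9) were chosen by the read counts of these same data, so counts, folds and calls in this locus are descriptions with no test attached. The reads come from chromatin immunoprecipitation and sequencing of Scl, also called Tal1, in HPC-7 cells, a mouse early haematopoietic line derived from embryonic stem cells and grown in medium with stem cell factor. It is a single cell line, the labels name no strain, genotype or treatment, and no control library was used here. All DNA came from 1 immunoprecipitation, fixed in 0.4% formaldehyde and sheared to 200 to 500 bp, and was divided into 3 portions for sequencing. Sample 1 is the portions of lanes 7 and 8 together, with 5632119 distinct reads placed in mm9, and sample 2 is the portion of the other site, with 4150610 distinct reads placed in mm8. The samples are therefore technical repeats, and every interval below covers counting error only. Intervals over all reads, not distinct ones, treat repeated reads as independent and may be too narrow.

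Ly6 genes encode small proteins that are held on the cell surface by a glycosylphosphatidylinositol anchor. Ly6a encodes Sca-1, a surface marker used to isolate mouse blood stem cells, and Ly6c1 and Ly6c2 encode the closely related forms of Ly6C, which marks monocytes and other cells. Scl is a basic helix-loop-helix protein that binds E-boxes (CANNTG) as a dimer with an E protein, often in complexes with GATA factors, and it is required for the formation of blood.

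Scl reads in the locus were concentrated at 1 place, and that place was at none of the 3 genes. A stretch of 1675 bp held 412 distinct reads in sample 1 and 300 in sample 2. It ended 24.9 kb from the Ly6c2 start in both samples, downstream of that gene and towards Ly6c1. The sequences below were built from the sample 2 reads and show only a selected part of what was read there. Of 12 runs of 30 or more bases, 6 were kept, and the printed runs come from these. They are a run of the main part of the stretch covered by 106 reads and a run of its other part covered by 19. Both are on the plus strand of mm8, with E-boxes in capitals. Neither reaches the summit of the main region described below (74914150 in mm8), and they do not stand for the whole stretch.
Ly6 stretch, chr15:74913991-74914063: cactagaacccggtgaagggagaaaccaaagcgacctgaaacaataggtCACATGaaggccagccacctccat
Ly6 stretch, chr15:74913044-74913114: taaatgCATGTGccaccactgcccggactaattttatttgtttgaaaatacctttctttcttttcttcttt

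The next sequences are the 250 bases before the start of Ly6c1 and of Ly6c2, on the minus strand that both genes lie on, from RefSeq in build GRCm38.p6, with E-boxes in capitals. They are shown because these are the members on either side of the stretch, and the table used here held no entry for Ly6a.
Ly6c1: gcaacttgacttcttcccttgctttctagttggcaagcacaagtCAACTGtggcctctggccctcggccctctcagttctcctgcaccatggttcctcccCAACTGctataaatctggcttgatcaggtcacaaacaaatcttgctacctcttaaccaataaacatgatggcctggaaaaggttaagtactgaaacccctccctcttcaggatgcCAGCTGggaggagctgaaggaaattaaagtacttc
Ly6c2: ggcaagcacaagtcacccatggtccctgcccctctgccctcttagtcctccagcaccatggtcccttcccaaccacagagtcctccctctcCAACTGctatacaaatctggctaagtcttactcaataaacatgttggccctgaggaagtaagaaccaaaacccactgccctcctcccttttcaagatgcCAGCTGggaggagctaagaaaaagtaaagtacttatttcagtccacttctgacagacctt

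The promoters resemble each other: 170 of 234 alignment columns held identical bases (72.6%), where the 234 include 24 columns with a gap. The longest run they share is 20 bases. Ly6c1 held 3 E-boxes and Ly6c2 held 2, and each included 1 of the form CAGCTG. Neither held a GATA site, searched on both strands as AGATAA or AGATAG, and as TGATAA or TGATAG. Over 32851 mouse promoters of the same length, 66.2% held an E-box, 13% a CAGCTG and 26.5% a GATA site. A match describes letters in a window and does not show a bound site.

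Genes were placed relative to the Ly6c2 start. A read of sample 2 (chr15:74939197-74939228 in mm8) matched the Ly6c2 start sequence. Its difference between builds was the one found at 46 of 102 genes searched on part of the chromosome, Ly6c2 included. Of the 46, 3 lay below Ly6c2, and these may be genes of the cluster itself, and 42 lay above it. Of 74 matches of reads on the chromosome to the start sequences searched, 69 had this difference. Of 2 unique reads that matched the Ly6c2 start, only 1 had it. Ly6g and Ly6f had 1 matching read each, and 0 had it. Ly6a and Ly6c1 could not be matched by sequence and were placed at their GRCm38 distance from Ly6c2, which assumes that the spacing is the same in the older builds. The samples were aligned to each other at a difference of 3175 bp, where 201 read ends coincided in the 50 kb that hold the stretch. The next best difference there, 3174 bp, had 182. The difference of 3175 bp had the most coincident ends in 4 of 6 such segments of the locus. In the other 2 segments it had 2 coincident ends each and another difference had 3.

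**Figure D1:**
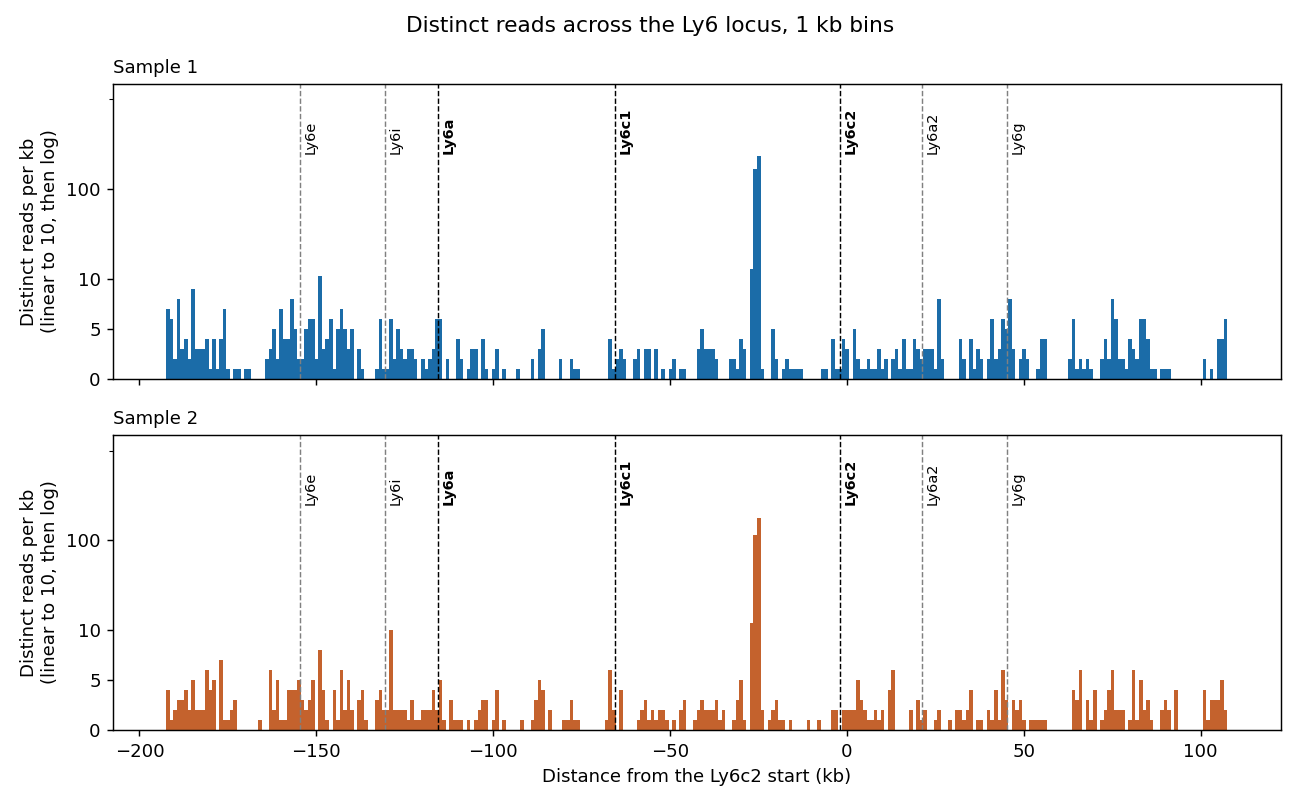
Distinct reads per kb across the 300 kb locus in sample 1 (top) and sample 2 (bottom), against distance from the Ly6c2 start in kb; the vertical axis is linear to 10 and logarithmic above. Dashed lines mark the middle of the Ly6 genes, with Ly6a, Ly6c1 and Ly6c2 in bold. The high bins are those of the stretch, between Ly6c1 and Ly6c2 in both samples.

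At Ly6a, the gene of 3.16 kb with 10 kb on each side held 51 distinct reads in sample 1 (95% exact Poisson interval 38.0 to 67.1), where the genome average gives 68.6. Sample 2 held 36 (25.2 to 49.8) against 50.6. The ratios to the genome average were 0.743 and 0.712. The gene body alone held 14 reads in sample 1, where 9.35 are expected, and 10 in sample 2, where 6.89 are expected, and both averages lie inside the intervals (7.65 to 23.5 and 4.80 to 18.4). The fullest 200 bp window around Ly6a held 5 reads in sample 1 and 3 in sample 2. No region was called within 10 kb of Ly6a in either sample.

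Ly6c1 had the lowest density of the 3 genes in both samples. Its 24.9 kb held 30 reads in sample 1 (20.2 to 42.8) and 28 in sample 2 (18.6 to 40.5), which is 0.406 and 0.515 times the genome average. Inside the gene there were 10 and 13 reads, where 14.5 and 10.7 are expected. The fullest windows held 4 and 3 reads. Within sample 1 the density at Ly6c1 was 0.840 times the average in lane 7 and 0.243 times in lane 8. In lane 7 alone Ly6c1 was therefore not the lowest, as Ly6a stood at 0.753 and Ly6c2 at 0.486.

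Ly6c2, the gene nearest to the stretch, held 34 reads (23.5 to 47.5) in sample 1 and 29 (19.4 to 41.6) in sample 2. These counts are 0.480 and 0.555 times the genome average. The gene body held 11 reads in sample 1 and 6 in sample 2, against 11.6 and 8.53 expected, and the fullest windows held 3 and 2 reads. In density, Ly6a stood above Ly6c2 and Ly6c2 above Ly6c1 in both samples. However, the intervals of neighbours in that order overlap. With reads of 0 mismatches only, Ly6c1 (0.582) and Ly6c2 (0.577) changed places in sample 2. The sample 2 counts rest on uniquely placed reads. Whether sample 1 holds uniquely placed reads alone is not stated in the sources used here, so its counts, those of the stretch included, may hold others. How much of each gene a short read can be placed on uniquely was not measured. Of reads with several matches in sample 2, 2 matched the Ly6c1 start sequence by 23 bases or more and 2 matched that of Ly6c2, while 0 unique reads matched that of Ly6c1.

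**Figure D2:**
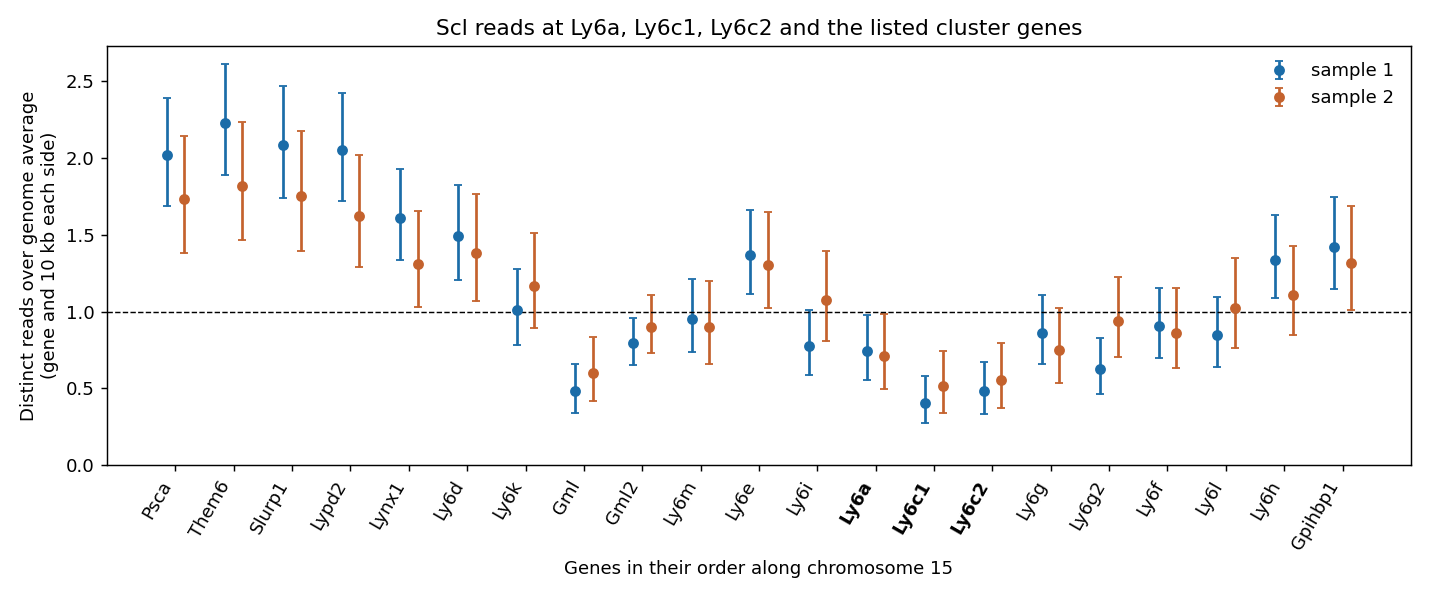
Distinct reads over each gene with 10 kb on each side, divided by the genome average, for Ly6a, Ly6c1 and Ly6c2 (bold) and the 18 listed genes, in order along the chromosome; bars are 95% exact Poisson intervals and the dashed line is the genome average. Ly6a, Ly6c1 and Ly6c2 lie below the line in both samples with their intervals, and Ly6e and the genes at both ends of the row, from Psca to Ly6d and Ly6h to Gpihbp1, lie above it.

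The other genes of the cluster were followed through a list of 18 (Psca, Them6, Slurp1, Lypd2, Lynx1, Ly6d, Gml, Gml2, Ly6k, Ly6e, Ly6i, Ly6f, Ly6g, Ly6g2, Ly6m, Ly6l, Ly6h and Gpihbp1). A called region lay within 10 kb of 0 of the 18 in either sample. On the whole chromosome 40 and 23 regions were called, and the share of all genes with one this near was not computed, since genes elsewhere were not placed in these builds. Read density over the listed genes ran from 1.43 per kb at Gml to 6.61 at Them6 in sample 1, with a median of 3.48, and from 1.32 to 3.98 in sample 2, with a median of 2.49 and the same genes at the ends. The genome averages were 2.96 and 2.18 per kb. Ly6a (2.20 and 1.55 per kb), Ly6c1 (1.20 and 1.12) and Ly6c2 (1.42 and 1.21) were all below the list's median. Psca, which encodes prostate stem cell antigen, stood at 2.02 and 1.73 times the genome average, and Ly6e, a widely expressed member, at 1.37 and 1.31. Because these genes and their flanks have few reads each and no control library, these differences along the cluster are given as measured, and the part of base composition or unique placement in it was not tested.

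The fullest uncalled windows of the locus held few reads each. Each is named by the nearest gene of the cluster. The share of the locus that lies this near to such a gene was not computed, so their places are given as measured. The fullest uncalled window of sample 2 lay inside Ly6i (chr15:74810051-74810250 in mm8), with 7 reads, 11.7 times the local background, and sample 1 had 2 reads in the same 200 bp. In sample 1 an overlapping window of Ly6i held 5 reads (8.43-fold), with 4 in sample 2. A window 3.32 kb from Ly6e held 6 reads in sample 1 (6.52-fold) and 1 in sample 2, and another 2.89 kb from it held 5 reads in sample 2 (8.33-fold) and 4 in sample 1. Ly6a itself had 5 reads in a window of sample 1 (chr15:74827651-74827850 in mm9, 8.43-fold), where sample 2 had 3. The strand distance, the median position of minus-strand ends minus that of plus-strand ends, was -4.5 bp at the Ly6a window, 201.5 and 232.5 bp at the Ly6i windows, 101 and 191.5 bp at the Ly6e windows and 87.5 bp at the Ly6g window. With so few reads these distances separate nothing. Ly6g, whose product marks granulocytes, had a window of 4 reads in sample 2 and 3 in sample 1. All of these passed the fold threshold of 5 and none passed the threshold on the adjusted p, and both samples carry DNA of the same immunoprecipitation.

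The calls themselves were 2 regions per sample, both inside the stretch. They took in 16 of 5997 windows of the locus in each sample (0.267%), where 0.00731% of all windows of the genome were called in sample 1 and 0.00431% in sample 2. Nothing is read from that excess, since the locus was selected on it. A call needed a Benjamini-Hochberg adjusted p under 0.01, at least 5 times the larger of the genome and the local 10 kb average, and 20% of reads on each strand.

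The main region spanned chr15:74916651-74917550 in mm9 and chr15:74913501-74914350 in mm8, 36.5 kb from Ly6c1 and 21 kb from the near edge of Ly6c2 when measured from the edges of the stretch. Of the genes placed here, none lies at that distance in GRCm38: the pseudogene Gm5960 is on the Ly6c1 side and the noncoding RNA Gm52219 on the Ly6c2 side. Its fullest 200 bp held 133 distinct reads in sample 1 (111 to 158; 51 plus and 82 minus) and 113 in sample 2 (93.1 to 136; 44 plus and 69 minus). That is 15.6 and 18.1 times the local background and 224 and 259 times the genome average. By reads it ranked 5 of 1519 regions in sample 1 and 9 of 784 in sample 2, and by fold over the local background 331 and 260. Within 300 bp of the summit the median minus-strand end lay 138 and 148.5 bp above the median plus-strand end (the strand distance), where the medians of all regions were 120.5 and 119.25 bp. Taken within 200 bp of the summit, the distance at the main region was only 43 and 52 bp, so it depends on the span used.

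The minor region lay towards Ly6c1, at chr15:74915901-74916200 in mm9 and chr15:74912701-74913050 in mm8. It was just inside the fold threshold, at 6.62-fold with 56 reads in sample 1 and 6.65-fold with 42 reads in sample 2. Its reads were split by strand 13 plus to 43 minus in sample 1 and 23 to 19 in sample 2, and its strand distances were -18.5 and 30.5 bp. Only 1.45% of sample 1 regions and 18.9% of sample 2 regions had a smaller strand distance. Counting every read instead of distinct ones, or asking for a fold of 10, left the main region alone. In lane 7 of sample 1 the minor region fell to 4.15-fold and was not called. Reads without mismatches gave strand distances of 46 and 271 bp at the minor region.

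Reads counted as background around the main region came mostly from the stretch itself. In the surrounding 10 kb without the 1 kb on each side of the summit, reads stood at 13.1 per kb in sample 1 and 10.1 in sample 2, which is 4.43 and 4.63 times the genome average. In the 5 kb immediately below and above the stretch, sample 1 held 10 and 8 reads and sample 2 held 12 and 9, or 1.8 and 2.1 per kb (0.607 and 0.961 times the average). Inside the stretch the density was 246 per kb in sample 1 and 179 in sample 2, 83.0 and 82.0 times the genome average and 137 and 85.3 times the flanks. With 2.5 kb on each side left out, a setting chosen after the data were seen, the background fell to 0.737 times the average over the samples. The fold of the main region averaged 16.8 over the samples. It was 53.6 when the 1 kb on each side of the summit, which holds most of the region's own reads, was left out of the background, and 74.1 with a background of 50 kb.

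**Figure D3:**
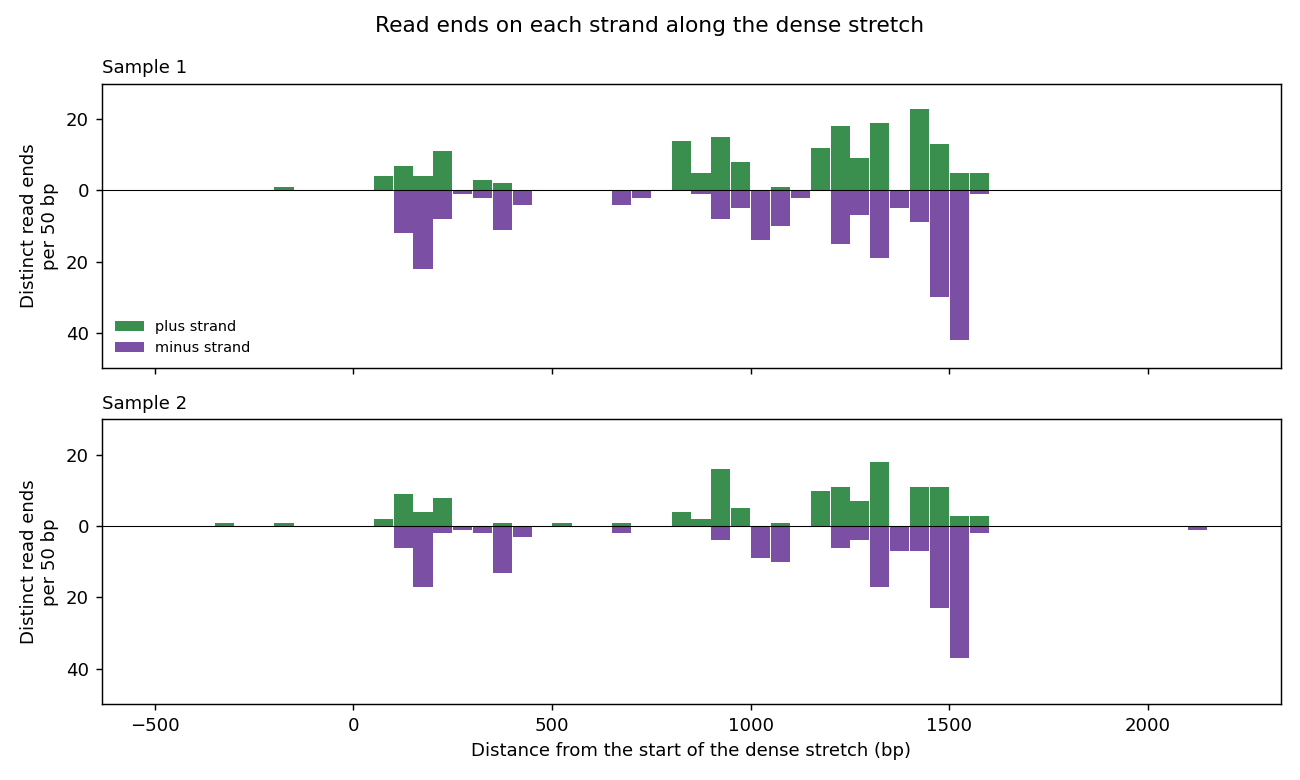
Distinct read ends per 50 bp on the plus strand (up) and minus strand (down) along the stretch, in bp from its start, for sample 1 (top) and sample 2 (bottom). Ends form the same separate groups in both samples, with the deepest minus-strand bins near the far edge and few ends outside the 1675 bp.

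Reads in the stretch piled up on the same positions. Only 45.5% of its 905 reads in sample 1 and 56.3% of its 533 reads in sample 2 were distinct, where the genome gave 94.8% and 96.6%. The samples shared 199 read ends there, 48.3% of the ends of sample 1 and 66.3% of those of sample 2. At a difference of 3174 bp in place of 3175 bp, 182 ends coincided in the 50 kb that hold the stretch. The shared count therefore does not by itself show that identical ends recur. The stretch held 40.7% and 37.1% of the locus's distinct reads. Outside it the locus was sparse, at 601 reads (0.680 times the average) and 509 (0.781 times), and 93 and 95 of the 300 bins of 1 kb were empty. Over segments of 50 kb the lowest was the one that holds Ly6c1, with 48 reads in sample 1 and 58 in sample 2, or 0.324 and 0.531 times the average.

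The reads of the stretch also differed in how they matched the genome, a property the choice of the locus did not use but which was looked at after the data were seen. In sample 1, 46.6% of them (43.3 to 49.9, exact binomial) had 1 or 2 mismatches, against 17.0% of all reads and 9.87% in the rest of the locus. In sample 2 the share was 54.2% (49.9 to 58.5), against 34.5% of all reads and 29.6% in the rest of the locus. Both shares count repeated reads, which stack on the same positions here, so their intervals may be too narrow. Among reads within 200 bp of the summits, the main region had 36.5% and 42.5%, and 20.2% and 39.8% of all called regions had more. The minor region had 65% and 69.1%, and 8.82% and 17.5% of regions had more.

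Sample 2 also gives, for each read, whether the genome holds another near match. Reads that overlap the 200 bp on each side of a summit were taken, repeated reads included, so the intervals may again be too narrow. Another near match existed for 67.3% of main region reads (62.1 to 72.3) and 45.7% of minor region reads (34.6 to 57.1). The share was 10.4% over all reads, with a median of 0 over the 784 called regions. At 9.82% of regions the share was above that of the main region. Where at least 20 reads covered a position of the stretch, 6 of 215 positions (2.79%) had a second base in 10% or more of them, and the median over 26 regions with enough depth was 2.01%. Whether copies of this sequence elsewhere contribute reads to the stretch was not tested.

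**Figure D4:**
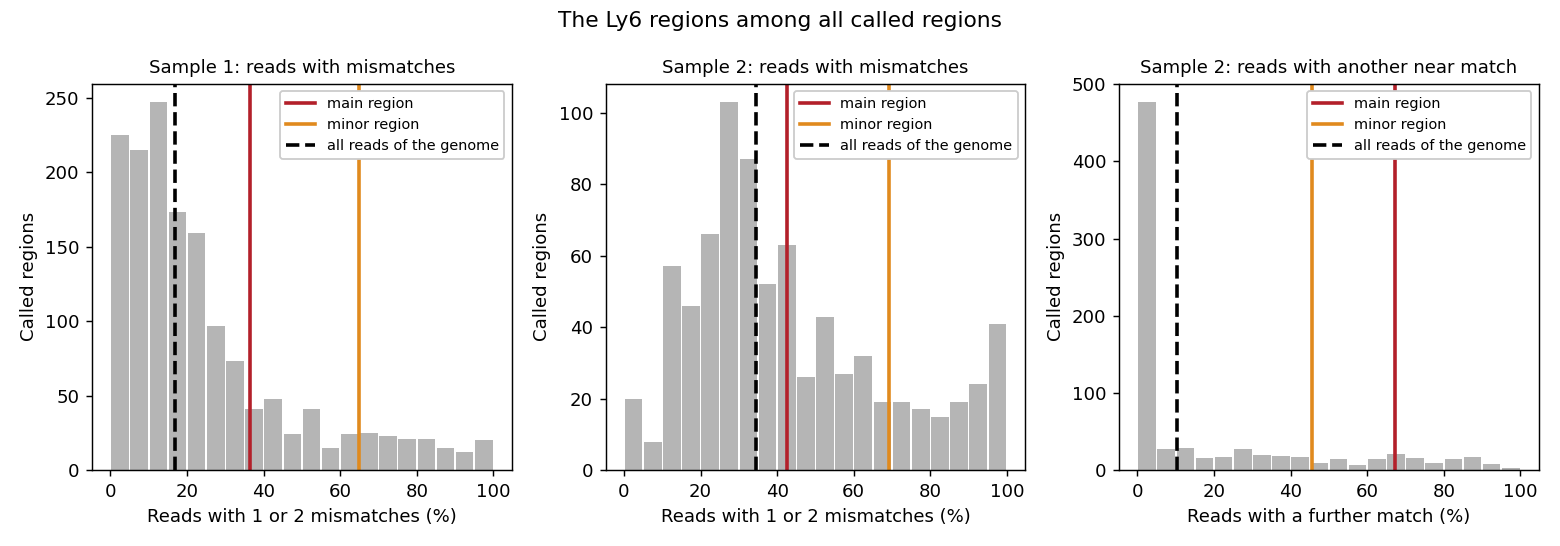
Number of called regions by the percent of their reads with 1 or 2 mismatches (left, sample 1; middle, sample 2) and with another near match in the genome (right, sample 2), in bins of 5 percentage points. Coloured lines mark the main (36.5%, 42.5% and 67.3%) and minor (65%, 69.1% and 45.7%) Ly6 regions, and dashed lines the share over all reads (17.0%, 34.5% and 10.4%).

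Neither an E-box nor a GATA site was read near the main summit. Reads of sample 2 spelled 955 of the 1675 bases of the stretch (57.0%), and these held 0 GATA sites, 4 E-boxes, 0 of the form CAGCTG and 0 pairs of an E-box with a GATA site 7 to 9 bases on. Within 100 bp of the main summit, with 76.6% of bases read, there were 0 of each. In the same span, 41.6% of the 784 regions held a GATA site and 54.3% an E-box among the bases that their own reads spelled. How much of those regions was read is not given here, so these shares are not set at equal coverage. The nearest E-box, the CACATG printed above, lay 110 bp away. Within 100 bp of the minor summit there were 1 E-box and 0 GATA sites. The plan named GATA sites and E-boxes only, and the cores of ETS and RUNX factors were searched in addition. The core of ETS factors (AGGAAA or AGGAAG, and CGGAAA or CGGAAG, on both strands) occurred 1 time within 100 bp of the main summit, 11 bp from it, and 45.7% of regions held one. The core of RUNX factors (TGCGGT or TGTGGT, on both strands) occurred 0 times there, and 22.4% of regions held one. Unread bases may hold further matches.

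The lanes and the samples were then compared as technical repeats. Reads within 200 bp of the summits were counted, and each lane was collapsed to distinct reads on its own. At the main region lane 7 gave 118 distinct reads and lane 8 gave 186, a lane 7 share of 38.8% (33.3 to 44.5) against 30.7% over all regions. Sample 1 as a whole held 208 there, so an end found in both lanes was counted in both. The two-sided exact binomial test gave p = 0.00279, which was 0.846 after Benjamini-Hochberg adjustment over 1519 regions, of which 2 passed an adjusted p under 0.05 (0.132%). With all reads counted the share was 30.6% against 27.6%. At the minor region the lanes gave 22 and 57 reads (27.8%, adjusted exact binomial p = 1). Sample 1 gave 56.8% of the reads of both samples at the main region (51.6 to 62.0) and 58.8% at the minor region (49.4 to 67.8), and its share of all distinct reads was 57.6%. With all reads counted its share at the main region was 63.4% (60.2 to 66.4), against 58.0% over the genome. That interval treats repeated reads as independent and may be too narrow, so no difference between the samples is read from it.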

How the data were processed

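The members, the gene list and the analyses were chosen with earlier results of these data known. Per the labels, sample 1 was aligned with Solexa alignment software and sample 2 with Eland (versions not given in the sources used here), and the deposited text gives builds mm9 and mm8. The deposited score of sample 1 lies between 43 and 45, the read length being 45 bp, so mismatches were taken as 45 less the score. Sample 2's deposited counts give each read's genome matches with 0, 1 and 2 errors. The named genes were Ly6a, Ly6c1, Ly6c2, the 18 listed genes by count and where nearest a region or window, every called region of the locus and the fullest uncalled windows.

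Reads were collapsed to distinct strand and 5′ end (5632119 and 4150610 of 5938053 and 4295961) and moved by a fraction 0.5 of the fragment length, the strand distance with the most read pairs after smoothing over 21 bp (118 and 126 bp). Each 200 bp window, every 50 bp, had a one-sided Poisson test (exact) against the larger of the local 10 kb and genome averages, with an effective genome of 1.9e9 bp, adjusted over all windows. Called windows within 200 bp were merged. Python 3.11.15, NumPy 2.4.6, SciPy 1.17.1 and Biopython 1.88 were used, and the caller was tested on simulated data. The planned test of the sample split over all regions was not run, because regions were not paired between builds, and shares with exact binomial intervals replace it. The plan placed genes by sequence, which among Ly6a, Ly6c1 and Ly6c2 succeeded for Ly6c2 only. Matches, shared runs and the stretch with its flanks were examined after the data were seen.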

Additional observations from a re-analysis of the deposited data

Results flagged for a closer look

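Reads left out of the comparisons above carry sequence of the main Ly6 region. Their counts were above 3 reads, the limit of a count of 0, which is no test at a region with many near matches. The sequence used was that read within 200 bp of the summit. In sample 2, 237 reads with several genome matches held a run of 20 bases of the main region, 45.3% of those reads and the region's own unique reads together (41.0 to 49.7, exact binomial). Repeated reads were counted here too, so that interval may be too narrow. At 16.6% of the 784 called regions this share was higher, and the median was 0. Another 10 reads with no genome match held such a run, and 0 reads of poor quality did. For the whole stretch the counts were 400 and 13. Of uniquely placed reads with a run of the stretch, 457 lay in it and 166 lay at 76 other places of 5 kb on 19 chromosomes, 67 of which held 1 read each. The fullest of these places, on chromosome 18, held 80 of the 166 (48.2%).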

How the results depend on the processing

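No paired analysis was possible because the samples form 1 group. Values are means over the samples. Where a lane is named, sample 1 was cut to that lane and averaged with the whole of sample 2, and the lane's own value follows. With 2 samples, leaving 1 out cannot move a value beyond their spread, so those ranges show no stability. The fold of the main region (16.8) was 25.5 with all reads, 20.4 in windows of 100 bp, 13.1 in windows of 400 bp, 74.1 over 50 kb, 53.6 without 1 kb each side, 24.8 with 0 mismatches, 20.9 with lane 7 (lane alone 23.7) and 15.6 to 18.1 by sample. That of the minor region (6.63) was, in that order, 4.40, 9.35, 5.33, 29.5, 9.39, 5.79 and 5.40 (lane 7 alone 4.15, not called), with 6.53 with lane 8 (alone 6.41) and 6.62 to 6.65 by sample. Regions called (2) fell to 1 with all reads, at a fold of 10 and in lane 7 alone. The strand distance of the main region (143.25 bp) was 170 with all reads and 47.5 within 200 bp of the summit; that of the minor region (6 bp) was -13.25 with all reads, -19.75 with lane 7 (alone -70), 158.5 with 0 mismatches and -18.5 to 30.5 by sample. Locus density (1.19 times the genome) was 1.59 with all reads, 1.11 with 0 mismatches and 1.35 with lane 7 (alone 1.47). The background (4.53 times) was 5.40 with all reads, 1.15 over 50 kb, 2.65 with 0 mismatches, 4.28 with lane 7 (alone 3.92), 4.85 with lane 8 (alone 5.06), and 0.737 without 2.5 kb each side, added after seeing the data. Density at Ly6a (0.727) was 0.799 with 0 mismatches, and at Ly6c1 (0.461) it was 0.677 with lane 7 (alone 0.840) and 0.379 with lane 8 (alone 0.243). The share of sample 1 at the main region was 63.4% with all reads. Within 200 bp of the summits the main region held 1 E-box and the minor region 2, and within 50 bp the minor region held 0. The fullest windows at the genes stayed between 2 and 5 reads. Beyond changes of construction, the causes were not tested. At 0.437 to 0.593 reads per 200 bp, the weakest binding that could have been called at the genes was not determined.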
